A study of Mus musculus with 9 samples.

Results

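The genes described here are 36 components of the signalling chain that runs from phosphoinositide 3-kinase (PI3K) through the kinase Akt to the kinase mTOR. They were chosen as the rows of the deposited count table whose gene symbol is on a fixed list of these components, and all 36 were found, each in 1 row, among the table's 55335 rows. The chain has been linked to the fast action of ketamine and its metabolites.

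RNA was sequenced from the prelimbic cortex, which belongs to the medial prefrontal cortex and is involved in pain and mood, of 9 mice on day 14 after surgery. Sham mice had a sham operation and received saline. SNI mice had spared nerve injury, a model of neuropathic pain in which some branches of the sciatic nerve are cut and another is left intact, and received saline. R-HNK mice had the same injury and received (2R,6R)-hydroxynorketamine (R-HNK), a metabolite of ketamine, at 10 mg/kg. There were 3 mice in each group, each giving 1 library, so the p-values rest on the spread between these mice. The strain, sex and age of the mice, and the route and time of dosing, were not given in the sources used here. Levels are in CPM, counts divided by library size, corrected for library composition and brought to a common total, and are given for replicates 1, 2 and 3 in that order.

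Growth factor and neurotrophin receptors pass their signal to PI3K, often through the insulin receptor substrates, and the lipid that PI3K makes recruits the kinases PDK1 and Akt to the membrane. Akt inhibits GSK3 and the FOXO transcription factors and lifts the brake that the TSC proteins place on Rheb, the small GTPase that switches on mTOR complex 1. Rag GTPases bring that complex to the lysosome when amino acids are plentiful, and once active it promotes translation through S6 kinases and the 4E-BP proteins. In neurons the chain controls protein synthesis near synapses. Most of its control is by phosphorylation, which RNA counts do not measure.

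Of the 36 genes 1 passed the test between SNI and sham mice: Irs2, which encodes an adaptor between insulin-like receptors and PI3K, was 1.39-fold higher after nerve injury. In that comparison 1.07% of all 21765 genes tested passed, 0.515% as higher and 0.556% as lower. The test was edgeR's quasi-likelihood test, with a pass at a Benjamini-Hochberg adjusted p under 0.05 over all genes tested. None of the 36 passed between R-HNK and SNI mice, where 0.119% of all genes passed (0.0368% higher and 0.0827% lower), or between R-HNK and sham mice, where 0.00459% passed. DESeq2 called Irs2 alone of the 36 in the first comparison and none in the other two.

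At an unadjusted p under 0.05, 5 of the 36 were higher and 2 lower in SNI than in sham mice, where 7.52% of all genes were higher and 9.07% lower (16.6% together). The 5 were Irs2, Gsk3a, Rheb, Deptor and Rragc, and the 2 were Foxo1 and Rragd. Between R-HNK and SNI mice none was higher and 4 were lower, where 4.2% of all genes were higher and 3.26% lower (7.47% together). These 4 were Irs2, Rheb, Rragc and Deptor. Between R-HNK and sham mice none had such a p, where 1.66% of all genes were higher and 1.87% lower (3.53% together). In the test of any difference among the 3 groups Irs2 alone passed (adjusted p = 0.0453), and 0.381% of all genes did. With 1 library left out at a time this call was lost 6 of 9 times, namely without any of sham replicates 2 and 3, the 3 SNI replicates and R-HNK replicate 1. It was also lost when a score of striatal markers, was a covariate and when the libraries high in them were left out. The fitted change was under 1.3-fold in all 3 comparisons for 33 of the 36 genes, and the other 3 were Irs2, Deptor and Foxo1.

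The start of the Irs2 gene is shown here because Irs2 is the gene that passed. Of the 36 genes 33 matched at least 1 entry in the RefSeq promoter table of the GRCm38.p6 build. The 250 bases before the start of Irs2 lie on the minus strand at chr8:11008930-11009179 and hold no exon annotated in GENCODE M21, whose Irs2 model starts further downstream than that of RefSeq. They are written in gene direction with the E-box CACGTG, a palindrome bound by many basic helix-loop-helix factors, in capitals.
Irs2: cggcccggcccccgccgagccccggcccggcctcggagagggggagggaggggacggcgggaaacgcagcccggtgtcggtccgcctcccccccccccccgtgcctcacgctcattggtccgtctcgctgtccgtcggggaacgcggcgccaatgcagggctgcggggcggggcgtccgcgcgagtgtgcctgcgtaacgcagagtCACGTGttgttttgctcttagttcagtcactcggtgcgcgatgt

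The motif begins 44 bases before the Irs2 start, and 72.8% of the 250 bases are G or C. To show the motif in its setting elsewhere, 30 bases around it are given for 3 of the other genes whose RefSeq promoter holds it, Rheb (minus strand, chr5:24842440-24842469), Rragc (plus strand, chr4:123917309-123917338) and Irs1, the paralog of Irs2 (minus strand, chr1:82291537-82291566), again in gene direction with the motif in capitals. All 30 bases of the Rheb stretch lie in an exon of GENCODE M21, whose Rheb model starts upstream of that of RefSeq, and the Rragc and Irs1 stretches lie in none.
Rheb: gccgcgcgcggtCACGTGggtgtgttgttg
Rragc: ggtgattccgggCACGTGatagtaccactt
Irs1: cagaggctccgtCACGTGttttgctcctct

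The motif begins 96, 112 and 115 bases before these 3 RefSeq starts. The 3 genes were chosen after their values were seen, and in each the SNI libraries lay above the sham libraries. Of these 3 genes none passed a test, and Gsk3a, like Rheb and Rragc at an unadjusted p under 0.05 from sham to SNI, holds no such motif. CACGTG was found in 7 of the 43 promoter entries of the 33 genes (16.3%), those of Irs1, Irs2, Rheb, Rragc, Eef2, Eef2k and the second start of Eif4e, and in 6.02% of all 32851 entries. Base composition was not matched between the 2 sets. Eef2, Eef2k and Eif4e, whose stretches are not shown, had overlapping sham and SNI groups, with changes of -0.01 ± 0.07, -0.06 ± 0.09 and 0.10 ± 0.46. Of the other motifs searched on both strands of the same 250 bases, the FOXO motif GTAAACA was found for Akt1 alone (3.17% of all entries) and the AP-1 motif TGANTCA for Pik3ca alone (6.75%). The cyclic AMP response element TGACGTCA (1.55% of all entries), the ATF4 composite motif TGATGCAA (0.791%), the EGR motif GCGTGGGCG (0.536%) and the glucocorticoid response element (0.387%) were found for none of the 33. These are matches of letters, not measured binding sites.

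The libraries held 53624337 to 73586375 counts each. The excitatory neuron marker Slc17a7 was present in every library, at 1477 to 2089 CPM. Markers of striatal medium spiny neurons, which lie outside the cortex, were uneven: all 13 of the list were detected, 1 of them with 0 counts in at least 1 library, and the list summed to 804 to 1772 CPM in 4 libraries (replicates 2 and 3 of the sham group, 1 and 3 of the R-HNK group) and to 316 to 366 CPM in the other 5. By group the sum ran from 358 to 1772 CPM in sham, 316 to 366 CPM in SNI and 347 to 1122 CPM in R-HNK mice. Oligodendrocyte markers (10 of 10 detected, none at 0) moved with them, at 5145 to 7159 CPM in the 4 libraries and 3414 to 4845 CPM in the other 5. Slc17a7 was lower in the 4 libraries than in any of the other 5. Meningeal fibroblast markers (8 of 8 detected, 1 at 0 in a library) summed to 44.5 to 65.2 CPM in sham, 27.3 to 31.9 CPM in SNI and 38.2 to 50.5 CPM in R-HNK mice, and blood markers (5 of 5 detected, none at 0) to 352 to 537, 282 to 399 and 541 to 719 CPM. Of 10 inhibitory neuron markers (all detected, none at 0) 3 passed as lower from sham to SNI, against 0.556% of all genes. From SNI to R-HNK 2 passed as higher, against 0.0368%. The signs of the 10 were mixed, with 4 positive and 6 negative from sham to SNI and 6 positive and 4 negative from SNI to R-HNK. Their sum was 969 to 1220 CPM in sham, 883 to 923 CPM in SNI and 909 to 1029 CPM in R-HNK mice. Of 10 excitatory neuron markers (all detected, none at 0) 1 passed as higher from sham to SNI, against 0.515% of all genes. The sign of all 10 was positive there, and their sum was 4972 to 6178, 5817 to 6422 and 5564 to 5728 CPM in the 3 groups. Of 10 astrocyte markers (all detected, none at 0) none passed from sham to SNI. At an unadjusted p under 0.05, 6 were lower and 1 higher there, against 9.07% and 7.52% of all genes. Of 6 oligodendrocyte precursor markers 2 were lower at such a p, and of 6 tested choroid plexus and ependyma markers 3, with none higher and none passing. The part of meninges, blood and all these cells in the results was not tested. In bulk tissue, fewer cells of a type and less RNA per cell cannot be told apart.

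**Figure D1:**
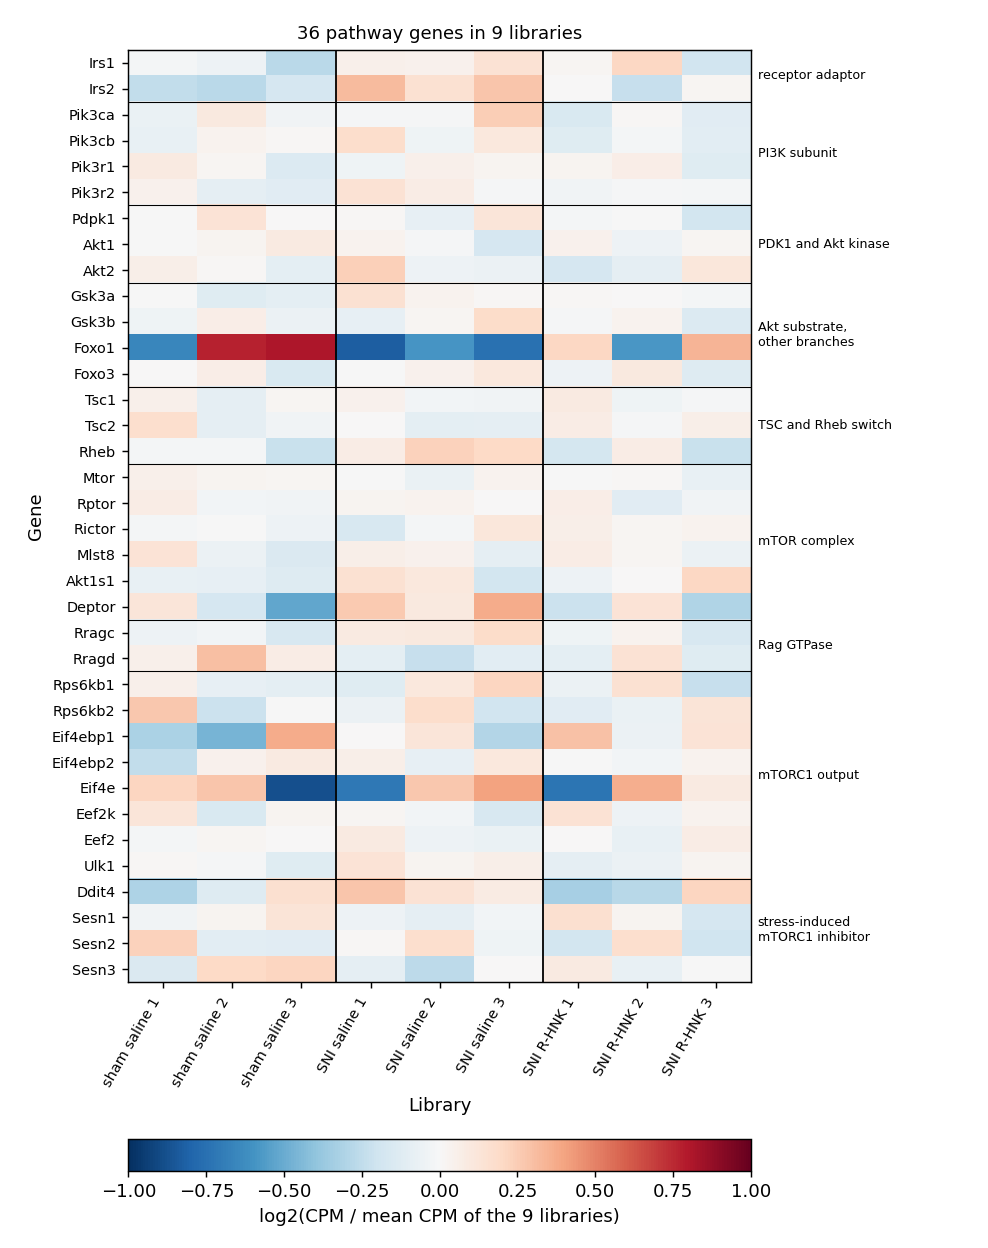
Each cell is the log2 ratio of a gene's CPM in 1 library to its mean over the 9 libraries, with the 36 genes in rows by role and the libraries in columns by group. Most rows are near white, Irs2 is red in the 3 SNI libraries, Foxo1 is red in the 4 libraries raised in striatal markers, and Eif4e is blue in 1 library of each group.

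Scaled to exon length, the genes spanned a wide range of levels. Eef2, which encodes the elongation factor that moves the ribosome along the mRNA, was highest at 340 ± 13.8 CPM per kb (SD over all 9 libraries). Gsk3a followed at 82.2 ± 4.58, Pik3r2 at 41.8 ± 2.34 and Akt1 at 38.8 ± 1.94 CPM per kb. At the low end stood Foxo1 at 2.74 ± 1.32, Irs1 at 2.07 ± 0.209 and Eif4ebp1, a repressor of cap-dependent translation, at 1.68 ± 0.328 CPM per kb. Within families, Irs2 (12.4 ± 1.97) lay above Irs1, Akt1 above Akt2 (16.1 ± 1.43), Gsk3a above Gsk3b (25.03 ± 1.65), and Eif4ebp2 (12.9 ± 0.920) above Eif4ebp1 by more than the spread over libraries. The lengths join all annotated exons of a gene, and the SD holds no error of length. In CPM the group means of Gsk3a (226, 250 and 238 in sham, SNI and R-HNK mice) and Gsk3b (244, 254 and 240) were similar. Their order per kb thus rests on exon lengths of 2900 and 9831 bases. The 2 S6 kinase genes Rps6kb1 (5.19 ± 0.529) and Rps6kb2 (4.35 ± 0.513) lay closer, with spreads that touch. Mtor measured 13.6 ± 0.404 CPM per kb, its mTORC1 partner Rptor 8.04 ± 0.318 and its mTORC2 partner Rictor 4.13 ± 0.218.

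**Figure D2:**
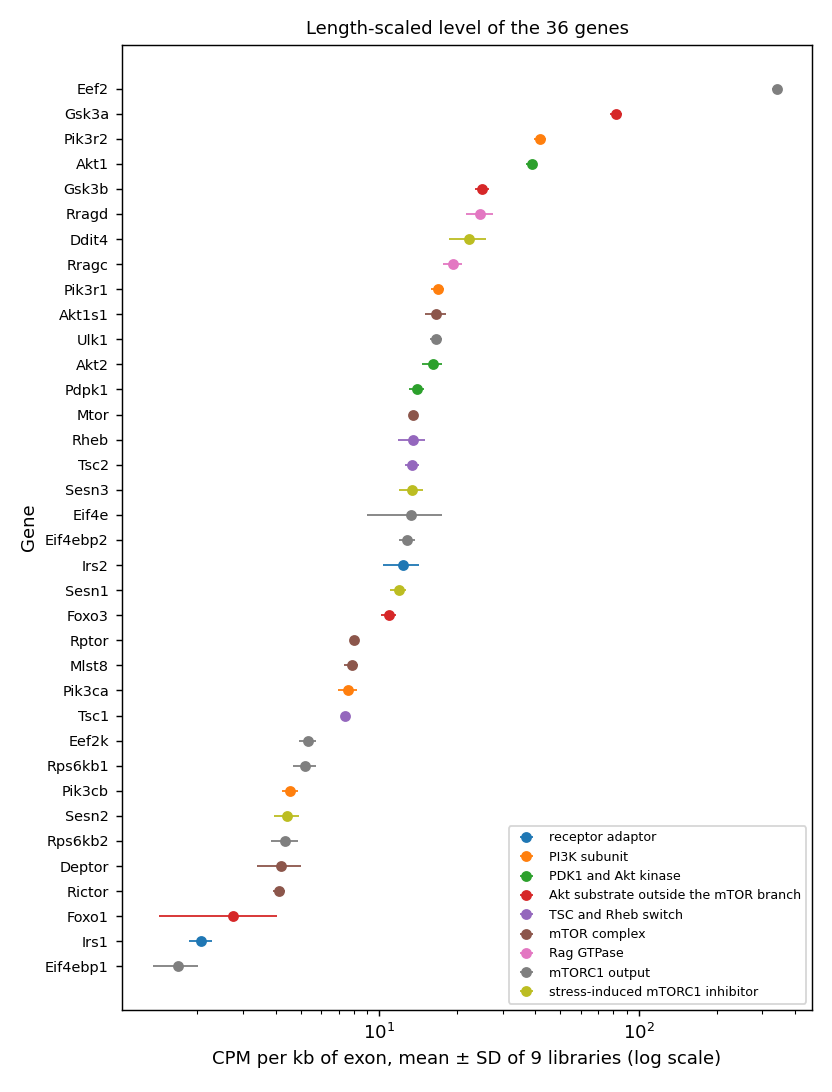
Points give each gene's mean level in CPM per kb of exon on a log axis, bars the SD over the 9 libraries, and colours the role in the chain. Eef2 stands highest at 340 CPM per kb, and Foxo1 and Eif4e have the widest bars relative to their level.

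Irs2 lies on chromosome 8 from 10984681 to 11008458 on GRCm38 (GENCODE M21). It measured 66.0, 65.0 and 69.5 CPM in sham mice, 97.3, 86.7 and 94.6 CPM in SNI mice and 78.5, 66.6 and 79.1 CPM in R-HNK mice. All 3 SNI libraries were above all 6 others, and the R-HNK libraries overlapped those of sham mice. The log2 fold change from sham to SNI was 0.47 ± 0.08 (SE, adjusted p = 0.0149 with edgeR). From SNI to R-HNK it was -0.31 ± 0.08, which did not pass (adjusted p = 0.31, unadjusted p = 0.00169), and from sham to R-HNK 0.16 ± 0.08 (adjusted p = 1, unadjusted p = 0.0637). The first 2 comparisons share the SNI mice.

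Within the sham group, replicate 1, low in the striatal markers, measured 66.0 CPM of Irs2, and replicates 2 and 3, high in them, 65.0 and 69.5 CPM. Within the R-HNK group, replicate 2, low in the markers, measured 66.6 CPM, and replicates 1 and 3, high in them, 78.5 and 79.1 CPM. With the striatal marker score as a covariate the change between SNI and sham mice was 0.57 ± 0.10 (adjusted p = 0.0234). With the 4 libraries high in these markers left out it was 0.50 ± 0.11 but missed the threshold (adjusted p = 0.107), with 1 sham, 3 SNI and 1 R-HNK library left and the spread taken from the SNI libraries alone. The threshold was also missed when sham replicate 2 (adjusted p = 0.0808) or SNI replicate 3 (adjusted p = 0.0707) was left out. It passed in 14 of the 17 other settings, with values from 0.46 to 0.57. The antisense transcript 9530052E02Rik shares 162 bases, 2.56%, of the Irs2 exons, and measured 0.330 to 1.17 CPM.

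Irs1, the sister adaptor on chromosome 1, ran from 15.8 to 18.8 CPM in sham, 19.5 to 20.9 CPM in SNI and 16.6 to 21.9 CPM in R-HNK mice. The SNI libraries lay just above the sham libraries, but the change of 0.18 ± 0.11 did not pass (adjusted p = 0.445). Its exons share 30.9% of their bases with Gm9747 on the opposite strand, and the strand setting of the counting was not given in the sources used here.

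The PI3K subunits gave no call in any comparison. The catalytic subunit genes Pik3ca and Pik3cb ran from 62.2 to 82.1 and from 30.2 to 37.1 CPM over the 9 libraries. The regulatory subunit genes Pik3r1 and Pik3r2 ran from 154 to 181 and from 161 to 192 CPM. Their log2 fold changes were between 0.02 and 0.12 from sham to SNI and between -0.17 and -0.02 from SNI to R-HNK. Pik3r2 was lower in all 3 R-HNK than in all 3 SNI libraries by a small margin (-0.09 ± 0.07, adjusted p = 0.767), and it was also lower in the 4 libraries high in striatal markers than in the other 5. The part of that tissue in its values was not tested.

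Downstream of PI3K, the genes of the kinases PDK1 and Akt gave no call. Akt1, the most abundant of the 3 per length, measured 158, 162 and 169.8 CPM in sham, 163, 158 and 142 CPM in SNI and 164, 154 and 161 CPM in R-HNK mice. The groups overlapped, with a change of -0.08 ± 0.07 from sham to SNI (adjusted p = 0.58) and 0.05 ± 0.07 from SNI to R-HNK (adjusted p = 0.885). Pdpk1, which encodes PDK1, the kinase that activates Akt, measured 153, 168 and 153 CPM in sham, 154, 145 and 166 CPM in SNI and 151, 153 and 135 CPM in R-HNK mice. Its groups overlapped too, with a change of -0.11 ± 0.08 from sham to R-HNK (adjusted p = 1). Akt2, the isoform best known from insulin-dependent glucose uptake, ran from 103 to 136 CPM. None of the 3 had an unadjusted p under 0.05 in any comparison.

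Among the substrates of Akt outside the mTOR branch, Gsk3a, a kinase that Akt inhibits, measured 238, 219 and 222 CPM in sham, 265, 245 and 240.5 CPM in SNI and 240.5, 239 and 235 CPM in R-HNK mice. The SNI libraries were above the sham libraries, but the change of 0.14 ± 0.06 did not pass (adjusted p = 0.274). An antisense transcript, 9130221H12Rik, covers 28.3% of the Gsk3a exons. Gsk3b ran from 224 to 279 CPM and Foxo3 from 74.2 to 88.8 CPM, with overlapping groups in all 3 comparisons.

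Foxo1, a transcription factor that Akt keeps out of the nucleus, varied most of the 36. It measured 15.1, 40.4 and 41.6 CPM in sham, 13.4, 15.8 and 14.2 CPM in SNI and 27.4, 15.9 and 30.1 CPM in R-HNK mice. The values of 27.4 CPM and above belong to the 4 libraries high in striatal markers, and the other 5 libraries lay between 13.4 and 15.9 CPM whatever their group. The change from sham to SNI was -1.16 ± 0.42 and did not pass (adjusted p = 0.236). With the striatal marker score as a covariate it was -0.07 ± 0.13 (adjusted p = 0.946), and with those 4 libraries left out -0.06 ± 0.16 (adjusted p = 0.964). Leaving out sham replicate 1 instead gave -1.49 ± 0.23 and a pass (adjusted p = 0.00802). The change from SNI to R-HNK was 0.76 ± 0.41 (adjusted p = 0.713).

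Of the 36 genes, Foxo1 was the 1 that was higher in all 4 libraries high in striatal markers than in all other 5, where 5.12% of all genes were. Pik3r2, Deptor and Sesn2 were lower in all 4, where 4.26% of all genes were. Those 4 libraries are 2 of 3 sham, none of the SNI and 2 of 3 R-HNK libraries.

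**Figure D3:**
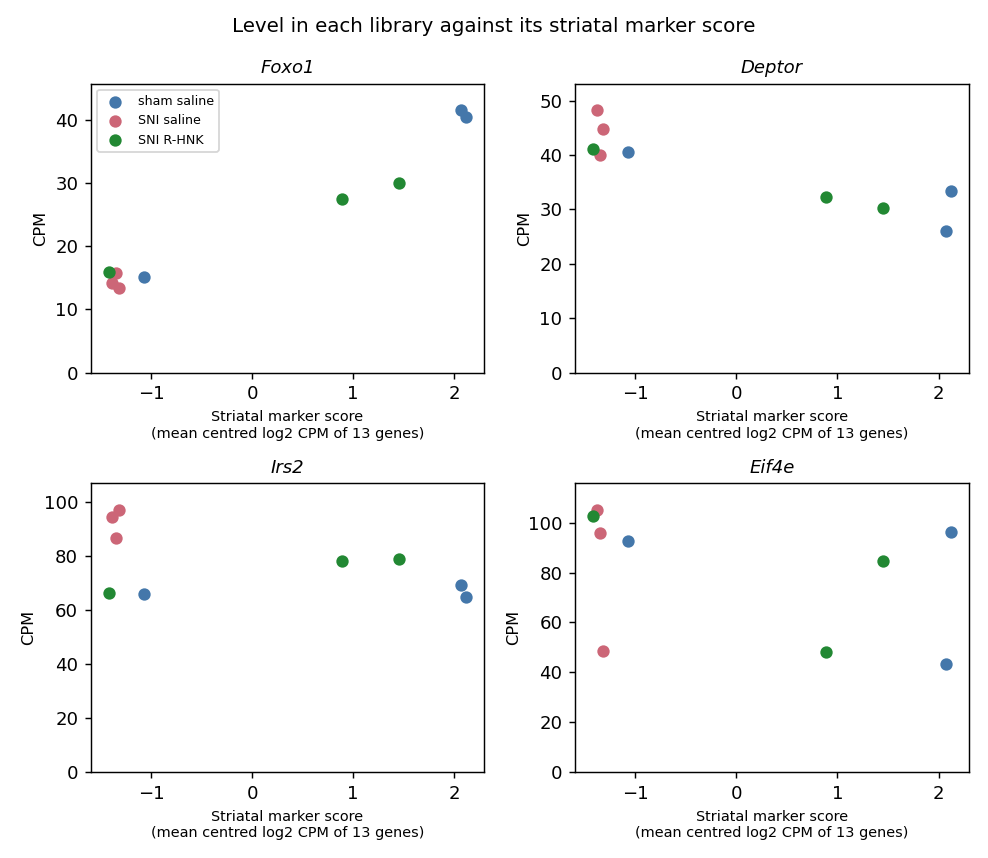
Each point is a library, with its striatal marker score (mean centred log2 CPM of 13 genes) on the x axis, its CPM on the y axis and its group as colour. Foxo1 is at 13.4 to 15.9 CPM in the 5 libraries of low score and at 27.4 to 41.6 CPM in the 4 of high score, Deptor is lower in those 4, Irs2 at low score is higher in the 3 SNI libraries than in the 1 sham and the 1 R-HNK library, and Eif4e is low in 3 libraries spread along the axis.

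At the switch between Akt and mTOR, the TSC genes gave no call. Tsc2, the subunit that Akt phosphorylates and that turns Rheb off, measured 145, 122 and 126 CPM in sham, 129.5, 121 and 122 CPM in SNI and 136, 129 and 135 CPM in R-HNK mice, and the groups overlapped (-0.08 ± 0.07, adjusted p = 0.641, and 0.10 ± 0.07, adjusted p = 0.774). Its partner Tsc1, which stabilises it, ran from 82.6 to 93.2 CPM, a change of 0.00 ± 0.07 from sham to SNI.

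Rheb, the GTPase that activates mTOR complex 1, measured 103, 103 and 89.1 CPM in sham, 109.8, 122 and 119.8 CPM in SNI and 92.4, 109.8 and 89.3 CPM in R-HNK mice. The 3 SNI libraries were above the sham libraries and above those of R-HNK mice, where SNI replicate 1 and R-HNK replicate 2 were nearly equal. The change of 0.26 ± 0.09 from sham to SNI did not pass (adjusted p = 0.177, unadjusted p = 0.0133), nor did that of -0.27 ± 0.09 from SNI to R-HNK (adjusted p = 0.524, unadjusted p = 0.00976). With the striatal marker score as a covariate these were 0.11 ± 0.10 and -0.17 ± 0.09, and with the 4 libraries high in those markers left out 0.20 ± 0.11 and -0.10 ± 0.10.

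None of the 6 genes of the mTOR complexes passed. Mtor, the kinase shared by both complexes, measured 143, 140.0 and 139 CPM in sham, 137, 131 and 141 CPM in SNI and 137, 138 and 130.4 CPM in R-HNK mice, a coefficient of variation of 2.97% over the 9 libraries, the lowest of the 36. Its changes were -0.04 ± 0.06 from sham to SNI (adjusted p = 0.773) and -0.01 ± 0.06 from SNI to R-HNK (adjusted p = 0.976). The R-HNK libraries were all below the sham libraries, by a change of -0.06 ± 0.06 (adjusted p = 1). Rptor, the scaffold of complex 1 that binds its substrates, measured 114, 106 and 106 CPM in sham, 110.3, 111 and 109 CPM in SNI and 113, 100.3 and 106 CPM in R-HNK mice. Its groups overlapped in all 3 comparisons, at 0.02 ± 0.07 from sham to SNI (adjusted p = 0.934) and -0.05 ± 0.07 from SNI to R-HNK (adjusted p = 0.894).

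Rictor, the scaffold of complex 2, measured 69.1, 69.8 and 67.6 CPM in sham, 62.4, 69.1 and 75.6 CPM in SNI and 72.9, 70.9 and 71.8 CPM in R-HNK mice. The R-HNK libraries were above the sham libraries, by 0.06 ± 0.07 (adjusted p = 1). Mlst8, a subunit of both complexes, ran from 31.5 to 38.2 CPM. Akt1s1, which encodes the complex 1 inhibitor PRAS40, measured 48.3, 48.2 and 46.7 CPM in sham, 56.8, 54.8 and 45.0 CPM in SNI and 49.3, 51.3 and 58.8 CPM in R-HNK mice. Its change from sham to R-HNK was 0.15 ± 0.09 (adjusted p = 1), with no overlap between those groups.

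Deptor, an inhibitor that binds mTOR in both complexes, had the widest spread of the 6. It measured 40.5, 33.3 and 26.0 CPM in sham, 44.7, 39.9 and 48.3 CPM in SNI and 32.2, 41.0 and 30.3 CPM in R-HNK mice. The 4 libraries at 26.0 to 33.3 CPM were those high in striatal markers, and the other 5 lay between 39.9 and 48.3 CPM. The change from sham to SNI was 0.41 ± 0.16 (adjusted p = 0.23), 0.08 ± 0.13 once the striatal score was a covariate, and 0.59 ± 0.14 with a pass (adjusted p = 0.0365) without sham replicate 1. The change from SNI to R-HNK was -0.36 ± 0.16 (adjusted p = 0.65).

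The 2 Rag GTPase genes had changes of opposite sign from sham to SNI, and neither passed. Rragc and Rragd encode alternative partners in the heterodimer that docks mTOR complex 1 on the lysosome. Rragc measured 62.3, 63.3 and 57.7 CPM in sham, 68.6, 69.0 and 73.3 CPM in SNI and 62.7, 66.2 and 57.6 CPM in R-HNK mice. All 3 SNI libraries were above the other 6, with a change of 0.20 ± 0.07 from sham (adjusted p = 0.189, unadjusted p = 0.0158) and -0.18 ± 0.07 to R-HNK (adjusted p = 0.625). Rragd measured 132, 156 and 134 CPM in sham, 119, 108 and 118 CPM in SNI and 118, 141 and 117 CPM in R-HNK mice. All 3 SNI libraries were below the sham libraries, a change of -0.29 ± 0.09 (adjusted p = 0.132, unadjusted p = 0.00622), while the R-HNK libraries overlapped both groups. Once the striatal score was a covariate, the change from sham to SNI was 0.13 ± 0.09 for Rragc and -0.33 ± 0.12 for Rragd, and with the 4 libraries left out 0.18 ± 0.11 and -0.19 ± 0.10.

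The ratio of Rragc to Rragd counts within a library does not depend on library scaling. It was 0.472, 0.404 and 0.432 in sham, 0.578, 0.637 and 0.622 in SNI and 0.530, 0.471 and 0.492 in R-HNK mice. The SNI ratios lay above all others, with a group mean of 0.612 ± 0.0304 against 0.436 ± 0.0342 in sham and 0.497 ± 0.0299 in R-HNK mice (SD, n = 3). The two-sided exact permutation test gave p = 0.1 for SNI against sham and for R-HNK against SNI, the smallest that 3 against 3 allows, and p = 0.2 for R-HNK against sham. This ratio was chosen after the values of both genes were seen. Rragc was higher and Rragd lower in SNI than in sham mice, both without overlap, so the ratios of these groups had to separate. The p for SNI against sham was thus fixed beforehand and adds nothing to the values of the 2 genes. The p for R-HNK against SNI was not fixed in this way, since the Rragd values of these groups overlapped. Rragc had already been seen to be lower in all 3 R-HNK libraries, however, so this p is no independent support either. The ratio was not examined with the striatal score as a covariate.

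**Figure D4:**
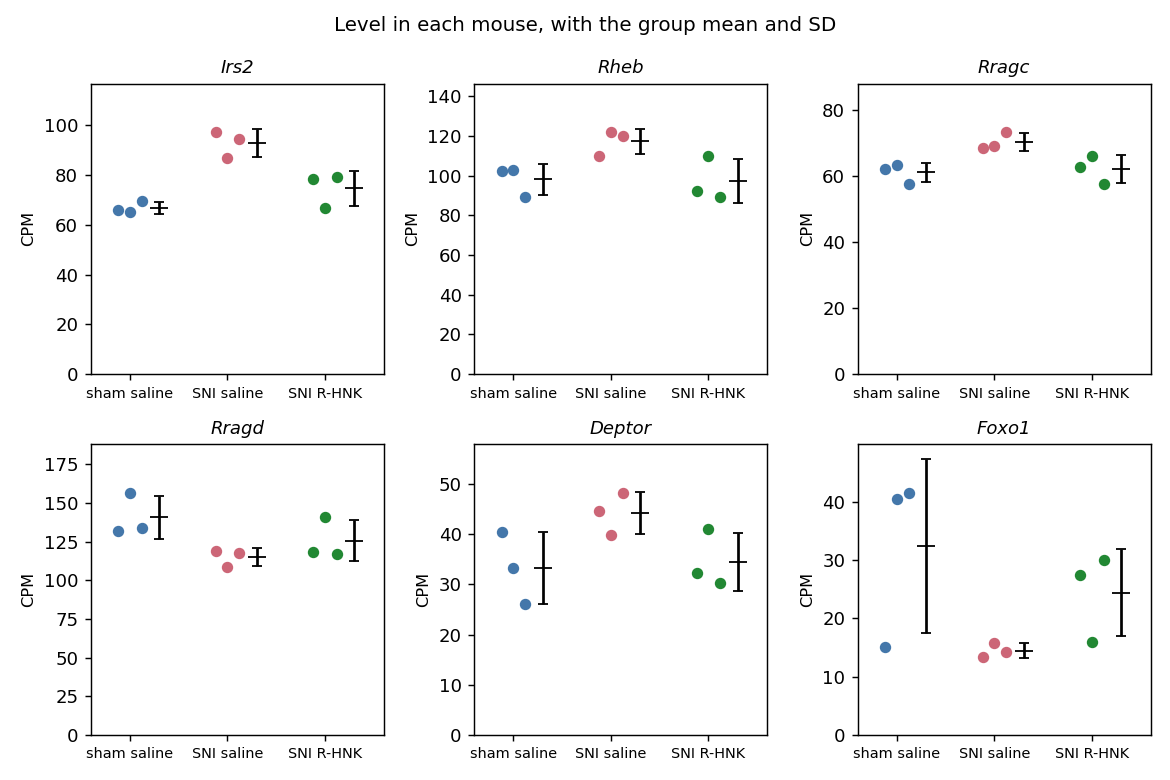
Points are single mice and the bar beside them the group mean and SD, in CPM, for 6 of the genes. Irs2, Rheb and Rragc are highest in the 3 SNI mice, Rragd is lower in the 3 SNI than in the 3 sham mice, and Deptor and Foxo1 spread widely within the sham and R-HNK groups.

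The outputs of mTOR complex 1 gave no call. Eef2 measured 1115, 1146 and 1136 CPM in sham, 1205, 1094 and 1083 CPM in SNI and 1132, 1074 and 1194 CPM in R-HNK mice. Eef2k encodes the kinase that inhibits this factor and that has been tied to the fast antidepressant action of ketamine. It measured 43.0, 35.5 and 40.3 CPM in sham, 40.1, 38.7 and 35.4 CPM in SNI and 43.6, 38.1 and 40.4 CPM in R-HNK mice. The groups overlapped for both, with changes from SNI to R-HNK of 0.01 ± 0.07 (adjusted p = 0.988) and 0.10 ± 0.09 (adjusted p = 0.826).

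Ulk1, the kinase that starts autophagy and that complex 1 represses, ran from 99.3 to 109 CPM in sham, 109.99 to 118 CPM in SNI and 101 to 109.5 CPM in R-HNK mice. Its SNI libraries lay above both other groups, by 0.11 ± 0.07 over sham (adjusted p = 0.42). The S6 kinase genes Rps6kb1 and Rps6kb2 ran from 38.3 to 52.3 and from 19.4 to 27.1 CPM. The 4E-BP genes Eif4ebp1 and Eif4ebp2 ran from 2.66 to 4.77 and from 62.7 to 80.0 CPM, with overlapping groups.

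Eif4e, which encodes the cap-binding protein that the 4E-BPs restrain, was at 2 levels that did not follow the groups. It measured 92.6, 96.4 and 43.2 CPM in sham, 48.4, 95.9 and 105 CPM in SNI and 48.0, 102 and 84.7 CPM in R-HNK mice. In each group 1 library was at 43.2 to 48.4 CPM and the other 6 lay between 84.7 and 105 CPM. The standard error of its fold change was wide (0.10 ± 0.46 from sham to SNI, adjusted p = 0.941). How reads that match several places were counted was not given in the sources used here, and its part in these 2 levels was not tested, so the Eif4e levels are uncertain.

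The stress-induced inhibitors of complex 1 are Ddit4, which acts through TSC and responds to hypoxia and glucocorticoids, and the sestrins, which report low leucine and oxidative stress. Ddit4 measured 31.6, 35.7 and 43.8 CPM in sham, 47.4, 43.1 and 41.4 CPM in SNI and 31.1, 32.2 and 45.3 CPM in R-HNK mice. Within the SNI range lay 1 library of sham and 1 of R-HNK mice, both high in striatal markers, and neither the change of 0.25 ± 0.15 (adjusted p = 0.454) nor that of -0.28 ± 0.15 (adjusted p = 0.702) passed. Once the striatal score was a covariate the same changes were 0.52 ± 0.16 (adjusted p = 0.293) and -0.47 ± 0.14 (adjusted p = 0.588), and with the 4 libraries left out 0.48 ± 0.13 (adjusted p = 0.204) and -0.45 ± 0.13 (adjusted p = 0.488). Sesn1 ran from 42.2 to 53.0 CPM and Sesn2 from 13.4 to 18.02 CPM. Sesn3 ran from 185 to 237 CPM in sham, 170.5 to 205 CPM in SNI and 194 to 217 CPM in R-HNK mice (-0.21 ± 0.10 from sham to SNI, adjusted p = 0.312).

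Across the set, 24 of the 36 genes had a positive and 12 a negative sign from sham to SNI, with a median of 0.05 against -0.02 for all genes. The 3 SNI libraries were above the 3 sham libraries for 6 genes, Irs1, Irs2, Gsk3a, Rheb, Rragc and Ulk1, where this held for 10.9% of all genes, and below them for 1, Rragd, where it also held for 10.9%. From SNI to R-HNK 14 signs were positive and 22 negative, with a median of -0.05 against 0.01 for all genes. R-HNK libraries were above SNI libraries for 1 gene, Foxo1 (7.15% of all genes), and below them for 6, Irs2, Pik3r2, Gsk3a, Rheb, Rragc and Ulk1 (6.59%). Several of these separations were near ties. The nearest SNI and R-HNK libraries measured 240.50 and 240.48 CPM for Gsk3a and 109.83 and 109.82 CPM for Rheb. They measured 173.4 and 172.9 CPM for Pik3r2, 109.99 and 109.5 CPM for Ulk1, and 15.83 and 15.89 CPM for Foxo1. Against sham mice, R-HNK libraries were higher for Rictor and Akt1s1 (4.43% of all genes) and lower for Mtor (4.42%), with a median of 0.00.

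**Figure D5:**
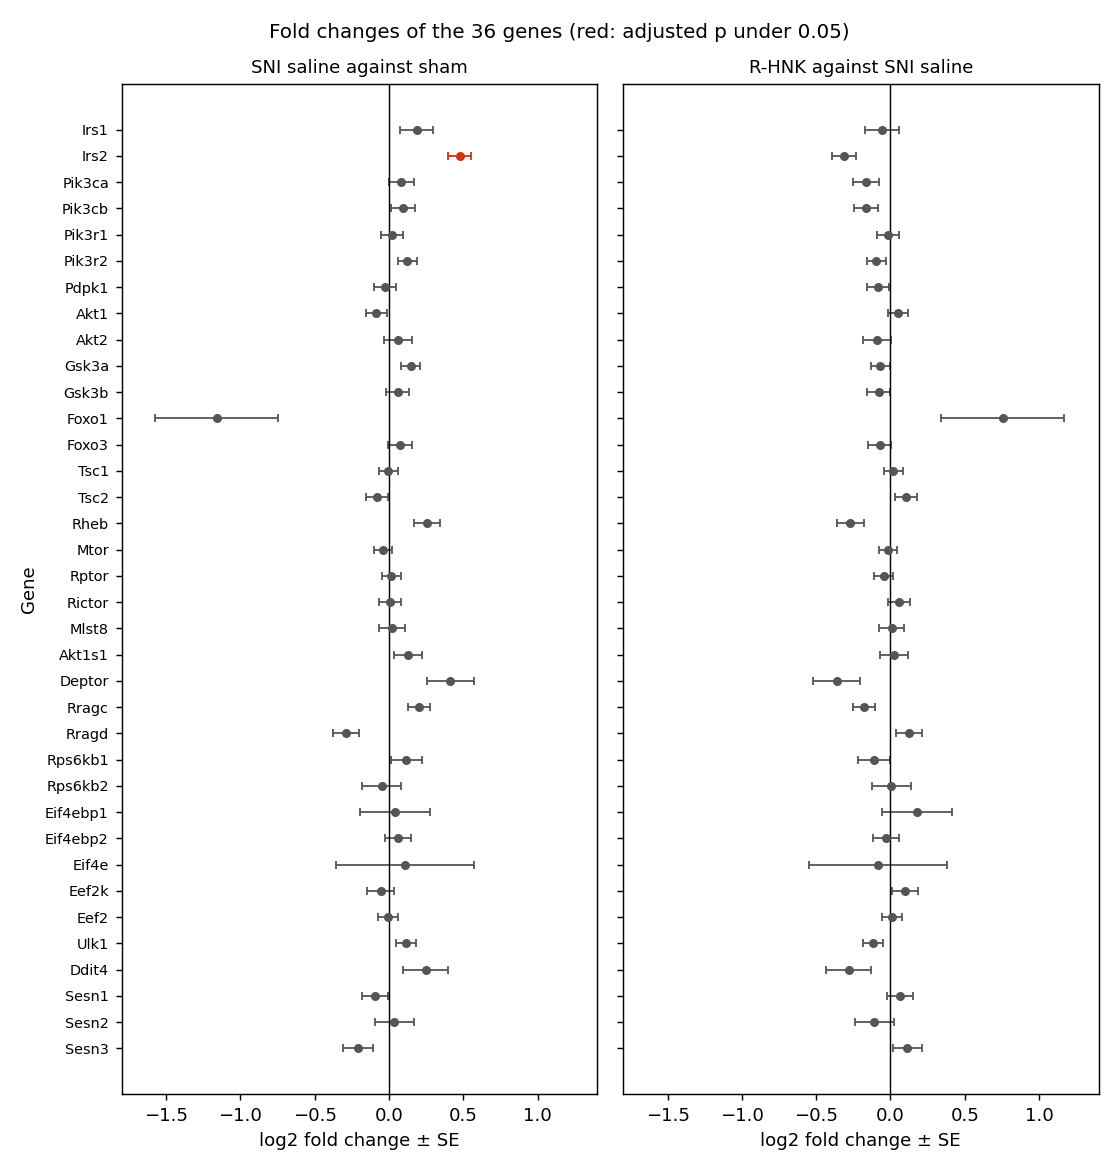
Points are log2 fold changes and bars 1 SE for the 36 genes, from sham to SNI saline on the left and from SNI saline to R-HNK on the right. The comparisons share the SNI mice, Irs2 at 0.47 is the 1 gene past the threshold (red), and the bars of Foxo1 and Eif4e are the widest.

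Other genes of the chain were taken from a list of 109 more components, all of which were tested. From sham to SNI 2 of the 109 passed, both lower, against 0.556% of all genes that passed as lower, and 107 did not pass. Their median was -0.01 against -0.02 for all genes, and 15 of the 109 had an unadjusted p under 0.05, against 16.6% of all genes. Pik3c2b, a class II PI3K, measured 35.0, 40.1 and 39.2 CPM in sham, 26.3, 28.5 and 27.9 CPM in SNI and 32.3, 27.1 and 33.9 CPM in R-HNK mice (-0.46 ± 0.10 from sham to SNI, adjusted p = 0.0405). Trib3, a pseudokinase that binds Akt and is induced by the stress factor ATF4, measured 0.650, 0.836 and 1.31 CPM in sham, 0.174, 0.283 and 0.187 CPM in SNI and 0.716, 0.588 and 0.718 CPM in R-HNK mice (-2.11 ± 0.42, adjusted p = 0.0365). The SNI libraries lay below the sham libraries for both, and Trib3 was higher in all 4 libraries high in striatal markers than in the other 5. Both calls were lost when the striatal marker score was a covariate, at -0.27 ± 0.10 for Pik3c2b and -1.65 ± 0.54 for Trib3 (adjusted p = 0.45 and 0.347), and when the 4 libraries high in it were left out, at -0.34 ± 0.12 and -1.58 ± 0.73 (adjusted p = 0.52 and 0.651). When 1 library was left out at a time, Pik3c2b passed in 3 of 9 fits (-0.51 to -0.41) and Trib3 in 2 of 9 (-2.35 to -1.78). Both passed without sham replicate 1 or R-HNK replicate 2, and Pik3c2b also without R-HNK replicate 3. Trib3 was at 1.64 ± 0.42 from SNI to R-HNK (adjusted p = 0.322).

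Several genes near the threshold stood at other levels of the chain. Srebf1, a lipid synthesis factor downstream of mTOR, was at -0.45 ± 0.10 from sham to SNI (adjusted p = 0.0514), and it was higher in all 4 libraries high in striatal markers than in the other 5. Once the striatal score was a covariate Srebf1 was at -0.23 ± 0.10 (adjusted p = 0.574). Sgk1, a kinase related to Akt and induced by glucocorticoids, was at 0.42 ± 0.11 (adjusted p = 0.0881), and Ntrk2, the BDNF receptor, at -0.27 ± 0.07 (adjusted p = 0.1). DESeq2 called Srebf1, Sgk1 and Ntrk2 in addition, 5 of the 109 in all. Among 26 nutrient-sensing genes, the Rag partner Rraga (0.19 ± 0.07), the Ragulator subunit Lamtor3 (0.21 ± 0.08) and the amino acid transporter chain Slc3a2 (0.19 ± 0.07) had unadjusted p under 0.05 and did not pass (adjusted p = 0.199, 0.216 and 0.189), and 7.52% of all genes were higher at such a p. From SNI to R-HNK and from sham to R-HNK none of the 109 passed in edgeR or DESeq2. There 6 and 2 of the 109 had an unadjusted p under 0.05, against 7.47% and 3.53% of all genes.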

How the data were processed

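RNA-seq libraries from the prelimbic cortex of 9 mice, 3 per group, were compared. Per the submitters' processing notes, reads were handled with HISAT2 2.0.5, mm10 and featureCounts 1.5.0-p3. The table deposited by the authors holds expected counts, whole numbers without normalization, and its name gives StringTie instead. Counts were used as they stand, and CPM was computed with the scaled library sizes below. Rows named by 107 repeated symbols were kept apart. In R 4.3.3 with edgeR 4.0.16, filterByExpr left 21765 of 55335 rows (99.96% of counts), followed by TMM (factors 0.979 to 1.03) and robust quasi-likelihood fits in which all 9 libraries shared 1 estimate of spread. The threshold was a Benjamini-Hochberg adjusted p of 0.05 over all genes tested. The script was tested on simulated counts. SE is the size of the log2 fold change over the root of the F statistic. P-values rest on spread shared across genes.

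Length is the union of GENCODE M21 exons. The 36 genes and all lists were chosen with earlier results of these data known. Values in every library are given for genes that passed, the 4 of smallest p per comparison, those without overlap at an unadjusted p under 0.05, and Mtor, Rptor, Rictor, Akt1, Tsc2, Ddit4, Eef2k and Eef2. Foxo1, Eif4e, Rps6ka3 and the sequences shown were chosen after their values were seen. Of the other lists, up to 4 genes of smallest p were named. The striatal marker score is the mean of log2 CPM, centred per gene, over 13 genes. Other settings were RLE scaling, no filter, DESeq2 1.42.0, a replicate block, the compared groups alone, leaving out each library, the striatal score as covariate, leaving out the libraries above its mean and, added after seeing the data, halved counts.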

Additional observations from a re-analysis of the deposited data

How the results depend on the processing

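Of the 36 genes, the count that passed from sham to SNI (1) was 0 to 3 when 1 library was left out, 0 without the libraries raised in striatal markers and 1 in the other settings. The count was 3 without sham replicate 1 (Irs2, Foxo1 and Deptor) and 0 without sham replicate 2 or SNI replicate 3. The count for any difference among the groups (1) was 0 to 2 when 1 library was left out, and 0 with the replicate block, with the striatal score as covariate and without the striatal libraries. From SNI to R-HNK and from sham to R-HNK the count was 0 in all settings. Of the 109 other genes, the count from sham to SNI (2) was 0 to 6 when 1 library was left out, highest without sham replicate 1, and 0 with the replicate block. It was 5 with DESeq2, 1 with the compared groups alone, 0 with the striatal score as covariate, and 1 without the striatal libraries. In that last setting 1 also passed from sham to R-HNK, Rps6ka3 in both cases, whose sham replicate 1 was low (34.4 CPM, with R-HNK replicate 1 at 30.9 CPM and the other 7 at 71.1 to 80.4 CPM). Of 918 refitted changes of 18 genes 3 lost a call, 2 gained one and 11 changed sign by at least 1 SE without a call. None reversed a call, but only Irs2 from sham to SNI had a call in the main fit, so few could. Changes near 0 often changed sign, such as that of Eef2 from sham to SNI in 6 of 17 settings. Over all genes tested, the count from sham to SNI (233) was 60 to 1170 with 1 library left out, 1138 with DESeq2, 370 without the filter, 88 with the striatal score as covariate and 86 without the striatal libraries. DESeq2 called 136 genes from SNI to R-HNK (edgeR 26) and 11 from sham to R-HNK (edgeR 1). No pairing by replicate number was seen. Deviations from the group mean correlated above 0.1 in 0 of 9 same-numbered pairs (-0.10 to 0.09), where other pairs ran from -0.16 to 0.18. A library correlated best with its own number in 3 of 18 cases. With 3 libraries per group this cannot show that no batch was shared. With the block Irs2 kept its call from sham to SNI (adjusted p = 0.0167). Over genes, replicates of a group differed by 14.5 to 43.6 times the sampling noise, so no library was a copy of another. With 3 mice per group, small changes may go undetected.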

Other observations

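Known targets of the FOXO factors were listed as 1 readout below Akt. Of 23, 22 passed the filter on low counts, and from sham to SNI 4 rose: Irs2, Trib1 (19.9 ± 1.79 to 55.3 ± 5.05 CPM), Gadd45a (6.05 ± 0.614 to 16.9 ± 2.86 CPM) and Depp1 (0.430 ± 0.163 to 1.77 ± 0.243 CPM), against 0.515% of all genes. The list's median was 0.02, and it was compiled with earlier results of these data known. From SNI to R-HNK 2 of the 22 fell, Trib1 (by 1.00 on the log2 scale) and Gadd45a (by 1.14), against 0.0827% of all genes. Tsc22d3, also induced by glucocorticoids, measured 40.5, 52.3 and 44.0 CPM in sham, 62.9, 67.3 and 64.0 CPM in SNI and 43.1, 58.1 and 45.9 CPM in R-HNK mice, without a pass (0.50 ± 0.11, adjusted p = 0.0567).

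Of 20 tested targets of ATF4, which induces Ddit4, Sesn2 and Trib3, Trib3 alone passed from sham to SNI in edgeR. There 1.07% of all genes passed, and the median of the 20 was 0.03. The serine synthesis gene Phgdh and the cystine transporter gene Slc7a11 were at -0.37 ± 0.11 and -0.54 ± 0.16 in edgeR (adjusted p = 0.117 and 0.119). The asparagine synthetase gene Asns was at 0.22 ± 0.08 (adjusted p = 0.206). DESeq2, which called 1138 genes in all, called Phgdh and Slc7a11 too (adjusted p = 0.0398 and 0.0159) but not Asns (adjusted p = 0.131). With 1 library left out, Phgdh passed in edgeR only without sham replicate 1 (adjusted p = 0.0322). Phgdh was higher and Asns lower in all 4 libraries high in striatal markers than in the other 5, and once the striatal score was a covariate Phgdh was at -0.11 ± 0.10, Slc7a11 at -0.30 ± 0.17 and Asns at 0.09 ± 0.09. From SNI to R-HNK none of the 20 passed in edgeR. An unadjusted p under 0.05 was found for 7 of the 20 from sham to SNI, against 16.6% of all genes. From SNI to R-HNK it was found for 4 of the 20, against 7.47% of all genes. Of 25 immediate early genes, chosen with earlier results known, 18 rose from sham to SNI (median 0.92), against 0.515% of all genes, and 7 fell from SNI to R-HNK (median -0.62), against 0.0827%. That choice makes these shares no test of the genes as a set.

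The 3 libraries low in Eif4e (sham replicate 3, SNI replicate 1 and R-HNK replicate 1) were also the lowest 3 for Gm38431, at 10.8, 25.8 and 14.2 CPM against 39.2 to 61.1 CPM in the other 6, and for Rps13-ps1, at 2.02, 4.24 and 1.61 CPM against 6.70 to 11.8 CPM. Both were found after the Eif4e values were seen.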
